A study of Mus musculus with 32 samples.

Results

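Lung tumors that had lost *Lkb1* (gene symbol *Stk11*) did not all look alike, and 3 of 10 such libraries carried much more RNA of the transcription factor gene *Sox9* than the other 7. The comparison set these 3 Sox9-high libraries against the 7 Sox9-low libraries, 10 of the 32 libraries of the series. Members were selected on *Sox9* itself. Among non-restored tumors with wild-type *Trp53*, a library with at least 50 *Sox9* counts per 1e6 of its summed expected counts (raw CPM) was placed in the Sox9-high class, and a library under 50 in the Sox9-low class.

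SOX9 marks the distal tip progenitors of the embryonic lung, which give rise to the alveolar epithelium, and it is turned down as alveolar cells mature. Alveolar type II (ATII) cells make and store surfactant and can give rise to lung adenocarcinoma, whereas alveolar type I (ATI) cells are the thin cells across which gas exchange takes place. *Sftpc* encodes surfactant protein C, and *Cebpa* encodes C/EBPα, a transcription factor of differentiated ATII cells. HNF4A is a transcription factor of stomach, gut and liver epithelium, and NKX2-1 is the lineage factor of lung epithelium.

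All 10 libraries were made from neoplastic cells of mouse lung tumors initiated by intratracheal Lenti-Cre, which turned on tdTomato and set the *Lkb1*XTR gene trap that silences *Lkb1*. The alleles included *Lkb1*XTR/XTR and *Rosa26*LSL-tdTomato, with tamoxifen in replicates 2, 7, 8 and 9, in which no FLPo-ERT2 recombinase was present. In replicates 1, 3, 4, 5, 6 and 10 one *Rosa26* allele carried FLPo-ERT2, and corn oil vehicle was given, so that the trap was not removed in either arm. Tumors were collected 24 to 27 weeks after initiation, when vehicle or 4 mg doses of tamoxifen had been given for 2 weeks, and tdTomato-positive cells were sorted after exclusion of CD45, CD31, F4/80 and Ter119. Replicates 2, 9 and 10 were from male mice and the other 7 from female mice. The 19 units used for a further comparison were 4 *KT* tumors (*Rosa26*LSL-tdTomato, wild-type *Lkb1*, no treatment), 7 restored tumors (FLPo-ERT2 with tamoxifen, which removes the trap) and, on a *Trp53*flox/flox background at 16 to 19 weeks, 4 non-restored and 4 restored animals. These restored animals also had FLPo-ERT2 with tamoxifen. Of the *Trp53*-deficient non-restored libraries, replicates 1 to 5 carried FLPo-ERT2 and were given vehicle. Replicates 6 and 7 were given tamoxifen and lacked FLPo-ERT2. The tamoxifen animals were at 167 and 187 raw CPM of *Sox9* and the vehicle animals at 27.7 and 71.7, so arm and *Sox9* level cannot be told apart there. Cre was delivered to the whole lung, so the cell of origin of each tumor is not known, and the labels do not say which of the 10 libraries share a mouse.

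*Sox9* (chr11:112782224-112787760, GRCm38) was at 80.2, 89.5 and 187 raw CPM in replicates 4, 5 and 8. In the 7 Sox9-low libraries the lowest value was 3.28 (replicate 2), the median 20.8 (replicate 3) and the highest 26.2 (replicate 1). The cut at 50 therefore lay between 26.2 and 80.2, the values just outside and just inside the Sox9-high class, with no library near it. These values chose the classes and were not tested. The 10 libraries held 1485923 to 5080811 expected counts, and the mean was 2938107 in Sox9-high and 3066163 in Sox9-low libraries (two-sided exact permutation test, p = 0.983). *Stk11* was at no more than 2.46 counts in each of them, so both classes lacked most of its transcript.

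**Figure D1:**
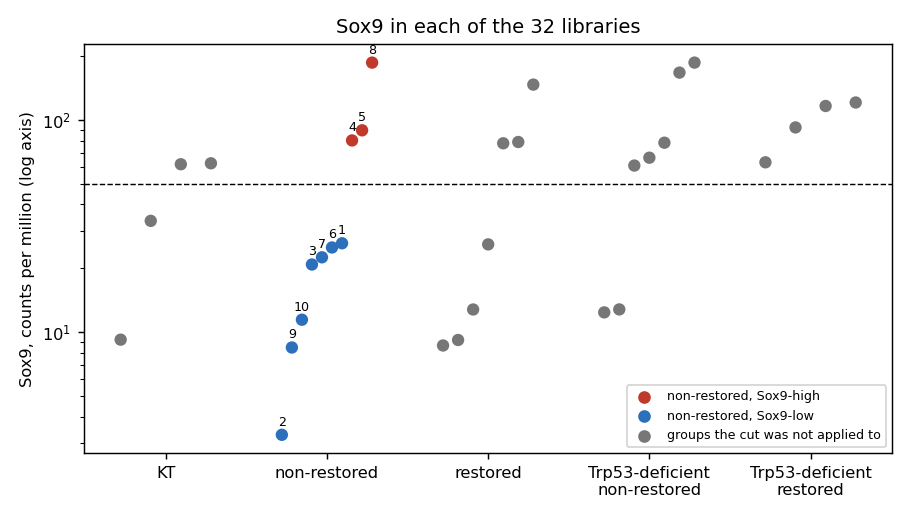
Raw CPM of Sox9 (counts relative to the summed expected counts, log axis) in each of the 32 libraries by group, one point per library, with the cut at 50 as a dashed line. Of the non-restored libraries, numbered by replicate, the 3 Sox9-high ones (red) lie between 80.2 and 187 and the 7 Sox9-low ones (blue) reach 26.2, and the cut was not applied to the other groups (gray).

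Both treatment arms were present in both classes, whereas all 3 Sox9-high libraries were from female mice. That is the most uneven split toward female mice possible here, so the test of sex could not have passed for it. Tamoxifen had been given to 1 of 3 Sox9-high and 3 of 7 Sox9-low libraries (two-sided Fisher's exact test, p = 1.0), and 0 of 3 Sox9-high against 3 of 7 Sox9-low libraries were from male mice (p = 0.475). The 10 most abundant genes took 8.34% to 12.3% of the counts in Sox9-high and 13.9% to 16.1% in Sox9-low libraries, with no overlap (two-sided exact permutation test, p = 0.0167, the smallest that 3 against 7 libraries allow, and 0.0834 adjusted over 5 library measures). The share of ribosomal protein genes was 4.23% to 6.32% in Sox9-high and 3.82% to 4.66% in Sox9-low libraries (p = 0.267). The 10 libraries differed from each other by more than sampling noise in every pair.

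The class went with the main axis of variation among non-restored tumors. The first principal component of the 500 most variable genes, computed without *Sox9*, held 63.4% of the variance. Replicates 4, 5 and 8 scored 44.8, 20.1 and 70.8 on it, and the Sox9-low libraries scored from -31.5 to -1.66, with replicates 6 and 7 at the upper end at -1.66 and -2.06. The classes did not overlap on this component (mean 45.2 ± 25.3, SD, against -19.4 ± 12.6; two-sided exact permutation test, p = 0.0167, the smallest possible). The second component held 12.3% and did not separate them (p = 0.417).

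Of 12066 genes tested with edgeR's quasi-likelihood test, 1626 (13.5%) differed between the classes at an adjusted p under 0.05. Of these, 1074 (8.9% of genes tested) were higher and 552 (4.57%) lower in Sox9-high libraries, shares to set beside each list count below. Levels that did not overlap between the classes were found for 1691 genes (14.0% of those tested), a share to set beside each such case below. A log2 fold change over 1 in size was found for 666 of the higher and 358 of the lower genes. The median log2 fold change over all genes was -0.03. Values from here on are CPM of the TMM-scaled library total, given for Sox9-high replicates 4, 5 and 8 in that order and for the Sox9-low libraries as lowest, median and highest. Because other genes were tested in the libraries that *Sox9* divided, each difference is an association with the class. In bulk RNA a lower level can be fewer cells of a kind or less RNA per cell, and these cannot be told apart. The number of calls rested on replicates 4 and 8 in particular, since 615 genes were higher and 136 lower without replicate 4, and 536 and 252 without replicate 8, against 1618 and 1349 without replicate 5.

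*Tnfrsf26* was at 37.7, 33.3 and 82.8 CPM in Sox9-high and at 3.46, 3.85 and 6.07 CPM in Sox9-low libraries, 10.9-fold higher (log2 fold change 3.45, SE 0.28, adjusted p = 0.000195). *Tnfrsf22*, a decoy receptor for the death ligand TRAIL, was at 63.9, 16.4 and 88.2 CPM against 1.80, 2.74 and 4.50 CPM (log2 fold change 4.29, SE 0.42). Neither gene overlapped between the classes. They lie beside each other on chr7, at 143607659-143628722 and 143634806-143649661, with another member of the cluster, *Tnfrsf23*, at 143665809-143685872. *Tnfrsf23*, named after its values were seen, was also higher (503, 149 and 444 CPM against 21.1, 32.5 and 51.1 CPM, adjusted p = 0.000663). The 3 are close paralogs, so reads can be shared between them and their separate levels are uncertain.

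*Eml1*, which encodes a microtubule-binding protein, was at 31.0, 19.0 and 35.5 CPM in Sox9-high libraries, 12.4-fold higher than in Sox9-low libraries (1.40, 1.96 and 4.12 CPM, adjusted p = 0.000195). *Sh2d1b1*, which encodes the signaling adapter EAT-2 of natural killer cells, was at 56.8, 14.9 and 69.1 CPM against 0.60, 1.71 and 3.20 CPM, a log2 fold change of 4.73 (SE 0.44). *Il18rap*, a subunit of the interleukin-18 receptor, was at 105, 57.9 and 88.2 CPM against 9.23, 14.1 and 24.0 CPM. Both genes are known from lymphocytes. Of the 13 immune markers examined, the leukocyte gene *Ptprc* was at 1.98 to 4.10 CPM and the highest, *Cd68*, at 8.82 to 17.1 CPM in Sox9-high libraries, 5 were at 0 in all 3, and the part of immune cells was not tested. *Spire1*, an actin nucleator, and *Tbc1d1*, a Rab GTPase-activating protein, were 5.14-fold and 9.62-fold higher, again with no overlap between the classes.

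Genes that were lower included *Chd7*, a chromatin remodeler, at 3.17, 10.8 and 3.02 CPM in Sox9-high against 28.1, 33.3 and 37.5 CPM in Sox9-low libraries (log2 fold change -2.66, SE 0.36, adjusted p = 0.00146). *Cachd1*, a cell-surface protein related to calcium channel subunits, was at 1.98, 5.64 and 1.62 CPM against 14.4, 22.1 and 25.6 CPM. *Tfrc*, the transferrin receptor that brings iron into cells, was at 177, 233 and 158 CPM against 370.1, 397 and 519 CPM. In each of these replicate 5 was the highest Sox9-high library and still lay below every Sox9-low library. *Npw*, a neuropeptide, *Samd12*, *Tceal8*, *Prps2*, a nucleotide precursor enzyme, and *Tln2*, a talin that links integrins to actin, were 2.29-fold to 10.2-fold lower, with no overlap in any of them.

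**Figure D2:**
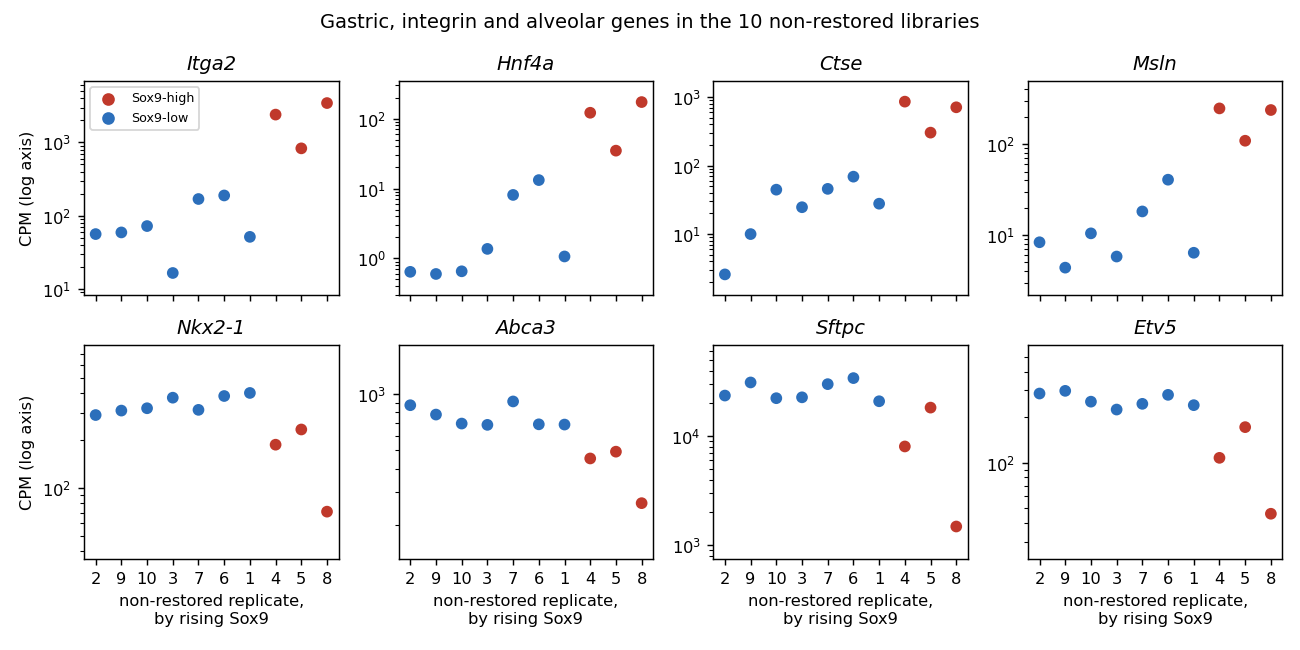
CPM of the TMM-scaled library total (log axes) for Itga2, Hnf4a, Ctse, Msln, Nkx2-1, Abca3, Sftpc and Etv5 in the 10 non-restored libraries, one point per replicate, ordered from left to right by rising Sox9. All 3 Sox9-high libraries (red) lie above the 7 Sox9-low libraries (blue) for the upper 4 genes and below them for the lower 4, of which Sftpc did not pass the test.

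Genes of stomach and gut epithelium had the median log2 fold change farthest from 0 among the lists examined. Of 11 list members tested, 7 were higher and 0 lower, beside 8.9% and 4.57% of all genes, and the median log2 fold change was 4.37 against -0.03 over all genes. *Hnf4a* was at 122, 34.9 and 173 CPM in Sox9-high and at 0.60, 1.07 and 13.2 CPM in Sox9-low libraries, 24.6-fold higher (log2 fold change 4.62, SE 0.78, adjusted p = 0.00516). *Ctse*, a gastric aspartic protease, was at 859, 303 and 710 CPM against 2.57, 27.7 and 68.9 CPM, 18.9-fold higher. *Vil1*, an actin bundler of the brush border, was at 9.13, 6.66 and 24.6 CPM against 0.20, 0.53 and 2.17 CPM. All 3 genes were higher in each Sox9-high library than in any Sox9-low library.

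*Pdx1*, the transcription factor of pancreas, duodenum and gastric antrum, was at 4.37, 4.10 and 15.1 CPM in Sox9-high libraries, and 5 of the Sox9-low libraries were at 0, with the highest at 1.12 CPM. The gut lectin *Lgals4*, the gastric mucin *Muc5ac* and the endoderm factor *Onecut2*, named after their values were seen, were also called higher, with log2 fold changes of 5.06, 4.56 and 6.18. In *Onecut2* the values were uneven, with 102, 43.6 and 1111 CPM in Sox9-high libraries and 29.2 CPM in Sox9-low replicate 7. The secreted gastric proteins *Tff1*, *Gkn1* and *Gkn2*, also named after their values were seen, had large log2 fold changes of 4.66, 3.71 and 3.91 that did not pass the test (adjusted p = 0.0909, 0.175 and 0.117). They were abundant in some Sox9-low libraries as well, with *Tff1* at 380 CPM and *Gkn2* at 717 CPM in replicate 6. Replicates 6 and 7 were the highest Sox9-low libraries for *Hnf4a*, *Ctse*, *Lgals4*, *Tff1*, *Gkn1*, *Gkn2* and *Itga2*. Without replicate 8, 3 of 10 tested members were higher, and without replicate 4 or 5, 7 of 11.

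Adhesion receptors of the basement membrane rose in part, while some of its components fell. In the list of laminins, collagen IV and integrins, 6 of 16 members were higher and 3 lower, with a median log2 fold change of 0.18. *Itga2*, the collagen-binding integrin α2, was at 2401, 829.8 and 3453 CPM in Sox9-high and at 16.4, 58.9 and 188 CPM in Sox9-low libraries, 24.8-fold higher (log2 fold change 4.63, SE 0.64, adjusted p = 0.00256). *Itga6* was at 724, 338 and 614 CPM against 126, 145 and 156 CPM, and its partner *Itgb4*, with which it forms the laminin receptor α6β4, was at 54.0, 31.3 and 153 CPM against 2.74, 5.62 and 13.9 CPM. Neither gene overlapped between the classes. *Itga3* and *Itgb3* were also called higher, and *Lama3*, *Col4a1* and *Col4a2* were called lower, by 3.08-fold, 2.64-fold and 2.28-fold. These 5 genes were named after their values were seen. Without replicate 4 the counts were 3 higher and 0 lower, and without replicate 8, 4 higher and 3 lower.

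*Sftpc* and *Cebpa*, the markers given for the differentiated state, were tested since they did not enter the rule. *Sftpc* was at 8055, 18312 and 1483 CPM in Sox9-high and at 20949, 23633 and 34177 CPM in Sox9-low libraries. Every Sox9-high library was below every Sox9-low library, but the difference did not pass the test (log2 fold change -1.50, SE 0.57, adjusted p = 0.109). *Cebpa* was at 82.6, 92.8 and 24.4 CPM against 86.2, 103 and 113 CPM, the classes overlapped, and the difference did not pass the test (log2 fold change -0.60, SE 0.32, adjusted p = 0.243). Replicate 8 was the lowest of the 10 libraries for both. Of the 5 tested members of the C/EBP family 0 were called, beside 13.5% of all genes called in either direction. The others were *Cebpg*, *Cebpd*, *Cebpb* and *Ddit3*, with log2 fold changes of 0.21, -0.47, -0.64 and -0.33 and adjusted p from 0.266 to 0.685. Without replicate 5, 2 of the family were called lower. The classes are therefore called by their *Sox9* level and not by a state of differentiation.

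The number of ATII genes that passed the test rested on single libraries and on the tool. In the 14 tested ATII markers displayed by the study, which were chosen on libraries that include these, all 14 log2 fold changes were negative, with a median of -1.32, and 0 were called higher and 2 lower, beside 4.57% of all genes lower. With DESeq2, 7 of the 14 were lower, without replicate 5, 9, and without replicate 4, 0. In female libraries alone 0 were called, and with sex as a covariate the call of *Etv5* was lost. The 2 were *Etv5*, an ETS factor that maintains ATII cells (108, 172 and 45.9 CPM against 224, 253 and 298 CPM, adjusted p = 0.0203), and the mucin gene *Muc1* (353, 624 and 524 CPM against 678, 886 and 1093 CPM, adjusted p = 0.0172). *Lyz2* (1673, 4755 and 601 CPM against 3717, 7852 and 11028 CPM) and *Sftpa1* (3276, 6747 and 562 CPM against 6138, 12004 and 15069 CPM) overlapped between the classes through replicate 5. In surfactant and lamellar body genes 1 of 13 was lower, with a median of -0.93, and 5 were lower with DESeq2 and 7 without replicate 5. The one was *Abca3*, the lipid transporter of lamellar bodies, at 453, 492 and 261 CPM against 686, 697 and 916 CPM (adjusted p = 0.0122). *Sftpb*, named after its values were seen, went the other way in replicates 4 and 5 (10543 and 7181 CPM against 4170 to 5991 CPM in Sox9-low libraries) and was at 1980 CPM in replicate 8.

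Within the treatment arms the ATII and gastric values were as follows, as descriptions with no test. In the tamoxifen arm, where replicate 8 was the only Sox9-high library against 3 Sox9-low libraries, the median log2 fold change of the displayed ATII markers was -3.66 and that of the gastric and gut list 6.26. In the vehicle arm, with replicates 4 and 5 against 4 libraries, the medians were -0.62 and 2.82. Both lists kept the sign of their median in each arm. Arm and library cannot be told apart in the tamoxifen arm.

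Genes of the alveolar transitional state, which cells pass through between ATII and ATI identity, were raised in part, with 6 of 14 members higher and 0 lower (median log2 fold change 0.86). *Ndrg1*, a stress-responsive gene, was at 360.4, 143 and 506 CPM in Sox9-high and at 19.9, 31.5 and 61.3 CPM in Sox9-low libraries, 9.40-fold higher (log2 fold change 3.23, SE 0.35, adjusted p = 0.000797). *Plaur*, the urokinase receptor, was at 58.7, 40.5 and 175 CPM against 10.6, 13.0 and 25.4 CPM. *Fosl1*, an AP-1 subunit, was at 45.6, 22.0 and 111 CPM against 5.23, 8.35 and 14.2 CPM. None of these 3 overlapped between the classes. The keratin *Krt18* was 2.23-fold higher, and *Krt19* and *Sprr1a*, named after their values were seen, were also called higher. Without replicate 4, as without replicate 8, 4 of 14 were higher.

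Called ATI genes lay in both directions. Of 16 members 2 were higher and 3 lower, with a median log2 fold change of -1.17. *Cav2*, a caveolar coat protein, and *Gprc5a*, a retinoid-induced receptor, were 2.15-fold and 1.66-fold higher and overlapped between the classes through replicate 5. *Hopx*, a homeodomain cofactor, was at 68.3, 79.4 and 28.8 CPM against 107, 150.2 and 223 CPM, and *Spock2*, a matrix proteoglycan, at 1.98, 5.12 and 0.23 CPM against 11.5, 17.8 and 38.5 CPM. *Akap5*, named after its values were seen, was 5.33-fold lower. Without replicate 4, 0 of the 16 were called, and without replicate 5, 2 were higher and 7 lower.

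**Figure D3:**
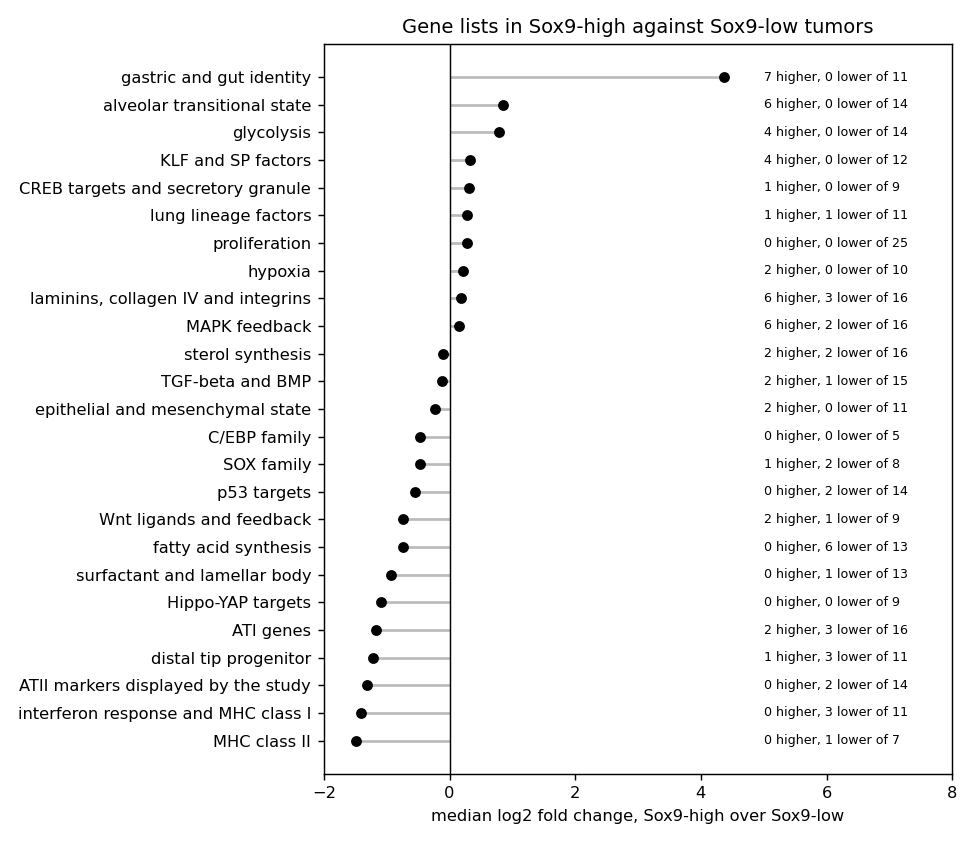
Median log2 fold change of Sox9-high over Sox9-low libraries (x axis) over the tested members of each gene list (rows), with the number of members called higher and lower beside it. The gastric and gut list has its median at 4.37 and the displayed ATII markers theirs at -1.32, and the median over all genes was -0.03.

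Of 11 lung lineage factors 1 was higher and 1 lower, a share near that of all genes (8.9% and 4.57%). *Nkx2-1* was at 188, 235 and 71.0 CPM in Sox9-high and at 290, 320 and 399 CPM in Sox9-low libraries, without overlap, 2.08-fold lower (log2 fold change -1.06, SE 0.30, adjusted p = 0.0369). That call was lost in 8 of the 10 fits that left out 1 library, among them the fits without replicate 4 and without any single Sox9-low library, with adjusted p over all alternatives from 2.32e-05 to 0.13. *Klf5*, a factor of epithelial progenitors, was at 399.7, 263 and 752 CPM against 188, 212 and 279 CPM and was called higher, a call lost without replicate 8. Without replicate 5, 5 lineage factors were higher and 2 lower. The KLF and SP list had 4 of 12 higher, *Klf3*, *Klf4*, *Klf5* and *Klf7*, and 0 lower, beside 8.9% of all genes higher. Without replicate 8, 1 of them was called, and the call of *Klf4* was among those lost. The call of *Klf3* was lost in 9 of the 10 fits that left out 1 library. *Klf4*, a factor of differentiating epithelium, was at 176, 160.4 and 401 CPM against 41.1, 90.6 and 109 CPM.

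Among genes of the distal lung tip, in which SOX9 is expressed in the embryo, 1 of 11 was higher and 3 were lower (median log2 fold change -1.21). The one was *Hmga2*, an architectural chromatin protein of embryonic and advanced tumor cells, at 13.5, 8.71 and 9.98 CPM. The Sox9-low libraries held at most 3 counts each, and against that floor per library *Hmga2* was at least 8.71-fold higher (adjusted p = 0.000923). The lower genes were *Etv5*, *Mycn* (8.73, 10.8 and 2.55 CPM against 14.6, 20.5 and 22.5 CPM) and *Shh*, a morphogen of the tip (20.6, 31.3 and 8.12 CPM against 31.4, 49.2 and 64.0 CPM). The calls of all 3 were lost without replicate 4, and without replicate 5, 6 of the 11 were lower. Of other SOX genes *Sox13* was higher and *Sox4* and *Sox5* were lower, of 8 tested. *Sox4* was at 13.5, 19.0 and 3.02 CPM against 30.9, 42.9 and 62.3 CPM. Cartilage genes that SOX9 binds in chondrocytes were almost absent, since 2 of 14 were abundant enough to be tested, and 1 of them, *Sox5*, was lower.

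Feedback genes of the MAPK pathway, which ERK signaling induces, moved in both directions, with 6 of 16 higher and 2 lower. *Dusp6*, an ERK phosphatase, was at 482, 293 and 426 CPM in Sox9-high and at 138, 180 and 211 CPM in Sox9-low libraries (log2 fold change 1.18, SE 0.18, adjusted p = 0.00199). *Spry4*, an inhibitor of the pathway, was at 51.6, 47.7 and 63.3 CPM against 19.9, 26.8 and 32.1 CPM. *Fosl1* and, named after their values were seen, *Dusp4*, *Dusp5* and *Epha2* were the other higher genes, and *Etv5* and *Epha4* the lower ones. Without replicate 8, 3 of the list were higher and 2 lower. In the Wnt list *Porcn*, the acyltransferase that Wnt ligands need for secretion (80.2, 78.9 and 37.4 CPM against 7.58, 17.6 and 30.6 CPM), and the ligand *Wnt7b* were higher and the receptor-removing ligase *Znrf3* was lower, of 9. Without replicate 4, 0 of the Wnt list were called.

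In the TGF-beta and BMP list *Tgfbr1* and *Bmp2* were higher, by 1.81-fold and 2.69-fold, and the ligand *Tgfb2* was lower, at 2.38, 11.8 and 0.46 CPM against 24.3, 30.8 and 54.6 CPM, of 15. Over all genes 8.9% were higher and 4.57% lower. The Hippo-YAP target list had 0 of 9 called, with a median log2 fold change of -1.09, and 4 lower with DESeq2, as without replicate 5. The list of CREB targets and secretory granule genes had 1 of 9 called, near the 13.5% of all genes called in either direction. Of epithelial genes *Epcam*, an adhesion molecule, was at 337, 301 and 533 CPM against 216, 235 and 243 CPM and *Cldn7*, a tight junction claudin, was 1.95-fold higher. Of the 11 epithelial and mesenchymal state genes tested, these 2 were called and 0 were lower.

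All 14 tested glycolysis genes had a positive log2 fold change, with a median of 0.79, and 4 of them were called higher and 0 lower. The glucose transporter *Slc2a1* was at 167, 72.3 and 245 CPM in Sox9-high and at 38.5, 47.0 and 60.9 CPM in Sox9-low libraries (log2 fold change 1.76, SE 0.26, adjusted p = 0.00237). *Gapdh* was at 972, 503 and 936 CPM against 266, 336 and 480.2 CPM, and *Aldoa* and *Tpi1*, named after their values were seen, were 1.77-fold and 2.02-fold higher. With DESeq2, 8 of the 14 were called, without replicate 5, 9, without replicate 4, as without replicate 8, 2, and within the vehicle arm 0. Of 10 hypoxia genes 2 were higher, beside 8.9% of all genes. They were the secreted *Stc2* and the histone demethylase *Kdm3a* (295, 223 and 264 CPM against 94.4, 135 and 145 CPM). Without replicate 5, 4 were higher and 1 lower, and without replicate 8, 2 were higher. Leaving out any other single library left 1 higher, and DESeq2 gave 1 higher and 1 lower.

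Of 13 fatty acid synthesis genes 6 were lower and 0 higher, and the median log2 fold change was -0.74. *Acly*, which makes cytosolic acetyl-CoA, was at 153, 194 and 126 CPM in Sox9-high and at 195, 247 and 297 CPM in Sox9-low libraries. *Acaca*, the rate-limiting carboxylase, and the desaturase *Scd2* were 2.07-fold and 2.66-fold lower, and neither overlapped between the classes. *Fasn*, *Acsl4* and *Lpin1*, named after their values were seen, were the other 3. None of the 13 was called lower without replicate 4, and 1 was without replicate 8. Sterol synthesis genes did not share a direction, with 2 of 16 higher, among them *Msmo1*, and 2 lower, *Dhcr7* and *Insig1*. Over all genes 8.9% were higher and 4.57% lower. Without replicate 4, 0 of the sterol synthesis genes were called.

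Genes of antigen presentation and of the interferon response that passed the test were all lower. In the 7 MHC class II genes every log2 fold change was negative, with a median of -1.49, and the regulator *Ciita* was called (9.53, 20.5 and 4.64 CPM against 23.5, 34.7 and 51.3 CPM, adjusted p = 0.0142). *H2-Aa* (116, 224 and 27.8 CPM against 297, 342 and 389 CPM) and *Cd74* (509, 814 and 113 CPM against 1102, 1337 and 1529 CPM) did not overlap between the classes but did not pass the test (adjusted p = 0.0646 and 0.0566). With DESeq2, 6 of the 7 were called lower, without replicate 5, 6, without replicate 8, 5, and without replicate 4, 0. Of 11 interferon and MHC class I genes 3 were lower and 0 higher, with 7 lower with DESeq2 and 1 without replicate 4, as without replicate 8. *Psmb8*, an immunoproteasome subunit, was at 9.13, 13.8 and 4.87 CPM against 18.3, 22.5 and 46.5 CPM. *Ifit3* had 0 counts in all 3 Sox9-high libraries and 2.25, 4.50 and 8.53 CPM in Sox9-low libraries, which is at least 4.44-fold lower against a floor of 3 counts per library. *Ifit1*, named after its values were seen, was also called lower, at no more than 3 counts in each Sox9-high library.

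Of 25 proliferation genes tested, 0 were called with edgeR's quasi-likelihood test, beside 13.5% of all genes called in either direction. With DESeq2, 2 were called, and the median log2 fold change was 0.27 in the quasi-likelihood fit. *Mki67*, named after its values were seen, was at 54.0, 73.8 and 75.9 CPM in Sox9-high and at 9.58, 41.1 and 93.1 CPM in Sox9-low libraries. *Rrm2*, a subunit of ribonucleotide reductase, was at 11.1, 7.17 and 23.9 CPM against 0.65, 5.47 and 7.46 CPM (adjusted p = 0.0567). The ranges overlapped in both. Of 14 p53 target genes 2 were lower, *Zmat3* and the stress sensor *Sesn2*, and 0 higher. The shares over all genes were 4.57% lower and 8.9% higher.

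Markers of other cells were present at low levels in both classes. The summed level of 13 immune markers was 11.8 to 29.2 CPM in Sox9-high libraries (median 21.4). In Sox9-low libraries it was 7.98 to 77.7 CPM (median 11.2), with the highest in replicate 2. That of 8 endothelial markers was 2.09 to 72.8 CPM (median 31.35) against 6.75 to 129 CPM (median 20.57). The 8 fibroblast markers summed to 9.98, 47.6 and 323 CPM as the lowest, middle and highest Sox9-high library and to 86.9 to 591 CPM in Sox9-low libraries, and 0 of 7 tested were called. Airway markers summed to less in every Sox9-high library, with 19.95 to 48.2 CPM against 49.1 to 289 CPM over 7 genes. In this list *Scgb1a1*, the club cell secretoglobin, was at 6.75, 3.08 and 3.94 CPM against 5.33, 43.7 and 132 CPM, and *Tppp3* was called lower. Basal, neuroendocrine and red cell markers stayed at or below 4.50 CPM in sum. The part of other cells in the differences above was not tested.

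*Msln*, the surface protein mesothelin of mesothelium and of several carcinomas, was at 248, 109 and 238 CPM in Sox9-high and at 4.39, 8.35 and 40.7 CPM in Sox9-low libraries, 13.7-fold higher (log2 fold change 3.78, SE 0.59, adjusted p = 0.00405). The mesothelial genes *Wt1* and *Upk3b* were at 0 in all 3 Sox9-high libraries. The smooth muscle markers *Acta2*, *Tagln*, *Myh11* and *Cnn1* reached 5.12, 3.59, 0.51 and 0.23 CPM there. The sum of the smooth muscle and mesothelium list, 118 to 254 CPM against 11.4 to 50.5 CPM, was therefore almost wholly *Msln* in Sox9-high libraries.

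Sequence near the start of the called genes was examined for 5 motifs, in promoters from 250 bases before to 50 bases after the annotated start in RefSeq (GRCm38.p6), on both strands. A promoter was found for 8822 of the 12066 genes tested, 822 of the 1074 higher and 381 of the 552 lower genes. Shares are of these genes. A gene was counted if any of its promoters held the letters, so genes with more annotated starts had more chances. The C/EBP letters TTGCNNAA were held by 9.92% of all genes with a promoter, 10.7% of the higher and 11.8% of the lower ones. The SOX letters ACAATGG were held by 2.43%, 2.43% and 3.94%, and the NKX2-1 letters TCAAGTG by 2.48%, 2.92% and 2.10%. After *Fosl1* and *Hnf4a* had been seen among the higher genes, the AP-1 letters TGANTCA and the HNF4 letters CAAAGTCCA were added. The AP-1 letters were held by 6.19% of all genes with a promoter, 11.7% of the higher and 4.99% of the lower ones. The HNF4 letters were held by 0.419%, 0.973% and 0.262%. A match is not a bound site.

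Of the 8 leading higher genes, only *Sh2d1b1* and *Eml1*, the latter at 1 of its annotated starts, were found to hold the AP-1 letters. The genes shown were picked with the matches known and do not stand for the higher genes. *Sh2d1b1* held 2 matches in the 250 bases before its start. It is shown with *Plaur*, which held 1 match 69 bases before its start, and with *Itga2*, one of the most abundant higher genes, which held 0. Each line gives the 250 bases before the start, 5′ to 3′ on the strand of the gene, with AP-1 matches in capitals. The windows are chr1:170277068-170277317 (plus strand), chr7:24462233-24462482 (plus strand) and chr13:114932101-114932350 (minus strand).
Sh2d1b1: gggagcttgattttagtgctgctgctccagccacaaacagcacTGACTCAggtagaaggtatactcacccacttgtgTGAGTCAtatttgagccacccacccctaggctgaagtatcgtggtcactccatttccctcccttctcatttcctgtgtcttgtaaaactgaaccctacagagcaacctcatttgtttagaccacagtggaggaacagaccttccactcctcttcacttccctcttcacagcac
Plaur: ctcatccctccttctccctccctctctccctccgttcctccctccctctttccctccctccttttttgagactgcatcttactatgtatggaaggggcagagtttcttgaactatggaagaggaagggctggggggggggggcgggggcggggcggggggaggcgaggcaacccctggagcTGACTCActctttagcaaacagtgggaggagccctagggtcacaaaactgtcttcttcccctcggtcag
Itga2: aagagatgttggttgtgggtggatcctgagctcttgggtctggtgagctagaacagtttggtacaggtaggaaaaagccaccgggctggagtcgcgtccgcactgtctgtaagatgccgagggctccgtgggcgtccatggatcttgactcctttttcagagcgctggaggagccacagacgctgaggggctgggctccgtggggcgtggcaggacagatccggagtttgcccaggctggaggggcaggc

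To see whether the same genes followed *Sox9* in libraries that the rule did not use, the slope on log2 *Sox9* CPM was fitted over the other 19 units. Group was a covariate and treatment arm was not. Of 13525 genes 24 (0.177%) were called, 16 rising and 8 falling with *Sox9*. The genes of the class comparison leaned the same way. Of 1072 higher genes that could be compared, 998 (93.1%) had a positive slope, and of 545 lower genes 509 (93.4%) had a negative one, whereas over all 12020 genes measured in both fits the signs matched in 68.5%. The median slope was 0.17 log2 units per doubling of *Sox9* for higher and -0.14 for lower genes. Of the called slopes, 13 belonged to higher and 7 to lower genes in the same direction, and 0 in the opposite direction. Genes are not independent replicates, and these shares describe the 2 fits.

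**Figure D4:**
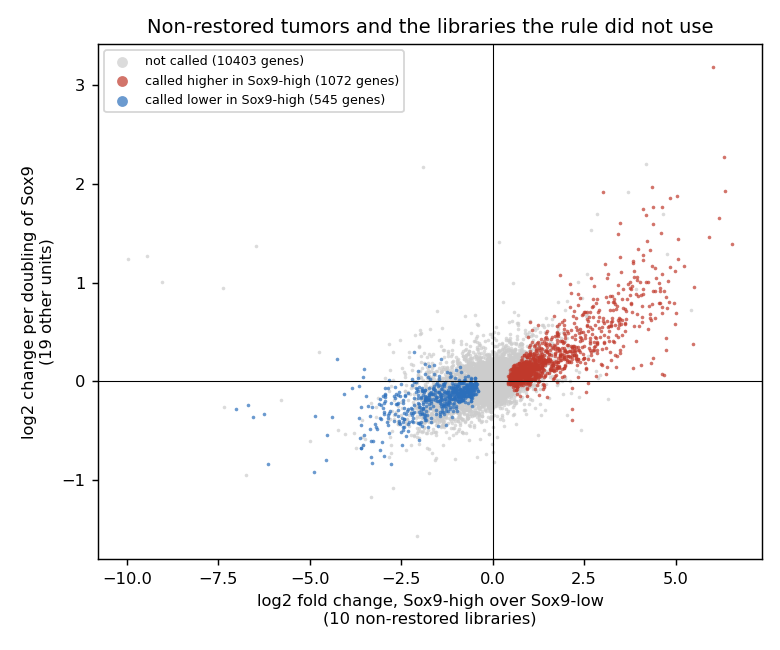
Log2 fold change between the Sox9 classes in the 10 non-restored libraries (x axis) against the log2 change per doubling of Sox9 in the 19 other units (y axis), one point per gene, with genes called higher in red, called lower in blue and the others in gray. Of the higher genes 93.1% and of the lower genes 93.4% fall on the side of the same sign.

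One restored library weighed heavily on the slopes. Without restored replicate 6, 324 genes rose and 146 fell with *Sox9*, of which 222 and 63 were higher and lower genes of the class comparison in the same direction. *Hnf4a* had a slope of 1.09 (SE 0.37, adjusted p = 0.197) with this library and 1.24 (SE 0.28, adjusted p = 0.03) without it. *Pdx1* (1.77, adjusted p = 0.11, then 2.14, adjusted p = 0.00446), *Etv5* (-0.23, adjusted p = 0.258, then -0.42, adjusted p = 0.012) and *Plaur* (0.57, adjusted p = 0.14, then 0.68, adjusted p = 0.0197) likewise missed the threshold with it and passed without it in edgeR's quasi-likelihood test. Of the quasi-likelihood fits that left out 1 unit, the one without restored replicate 6 gave these genes their lowest adjusted p. The highest in such fits was 0.378 for *Hnf4a*, 0.24 for *Pdx1*, 0.419 for *Etv5* and 0.296 for *Plaur*. With the library kept, DESeq2 gave adjusted p of 0.0293 for *Hnf4a*, 0.00976 for *Pdx1*, 0.0101 for *Plaur* and 0.176 for *Etv5*. *Itga2* (0.70, adjusted p = 0.288, then 0.81, adjusted p = 0.0837), *Sftpc* (-0.31, adjusted p = 0.338, then -0.45, adjusted p = 0.148) and *Nkx2-1* (-0.07, adjusted p = 0.523, then -0.06, adjusted p = 0.601) did not pass with or without it. In restored tumors alone 9 of 12026 genes were called, and 89.2% of higher and 85.5% of lower genes had the same sign, beside 64.3% of all. The difference in slope between non-restored and restored tumors was called for 0 of 12945 genes with edgeR's quasi-likelihood test (992 genes, 7.66%, at an unadjusted p under 0.05, smallest adjusted p 0.168), so no gene is reported as following *Sox9* in non-restored tumors only.

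In single libraries of the other groups *Sox9* and the other genes were apart. Restored replicate 6 had 148 CPM of *Sox9*, inside the range of the Sox9-high class, with 21.1 CPM of *Itga2*, 0.30 CPM of *Hnf4a*, 0 of *Msln* and 31752 CPM of *Sftpc*. Restored replicates 4 and 5, at 72.0 and 75.0 CPM of *Sox9*, had 513 and 519 CPM of *Itga2* and 87.9 and 74.6 CPM of *Hnf4a*. *KT* replicates 1 and 3, at 62.6 and 66.4 CPM of *Sox9*, had 116 and 149 CPM of *Itga2* and 2.04 and 2.84 CPM of *Hnf4a*, within the Sox9-low range. In the other direction, *Trp53*-deficient non-restored replicates 1 and 2, which are from 1 animal, had 14.2 and 13.1 CPM of *Sox9* with 3526 and 3739 CPM of *Itga2*, 71.6 CPM of *Hnf4a* in each and 780 and 878 CPM of *Sftpc*. Replicate 3 of that animal had 60.7 CPM of *Sox9*, 189 CPM of *Itga2* and 20101 CPM of *Sftpc*. A cut on *Sox9* and a cut on *Itga2* or *Hnf4a* would thus have sorted these libraries differently, while in the 10 non-restored libraries every Sox9-high library was above every Sox9-low library for both.

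**Figure D5:**
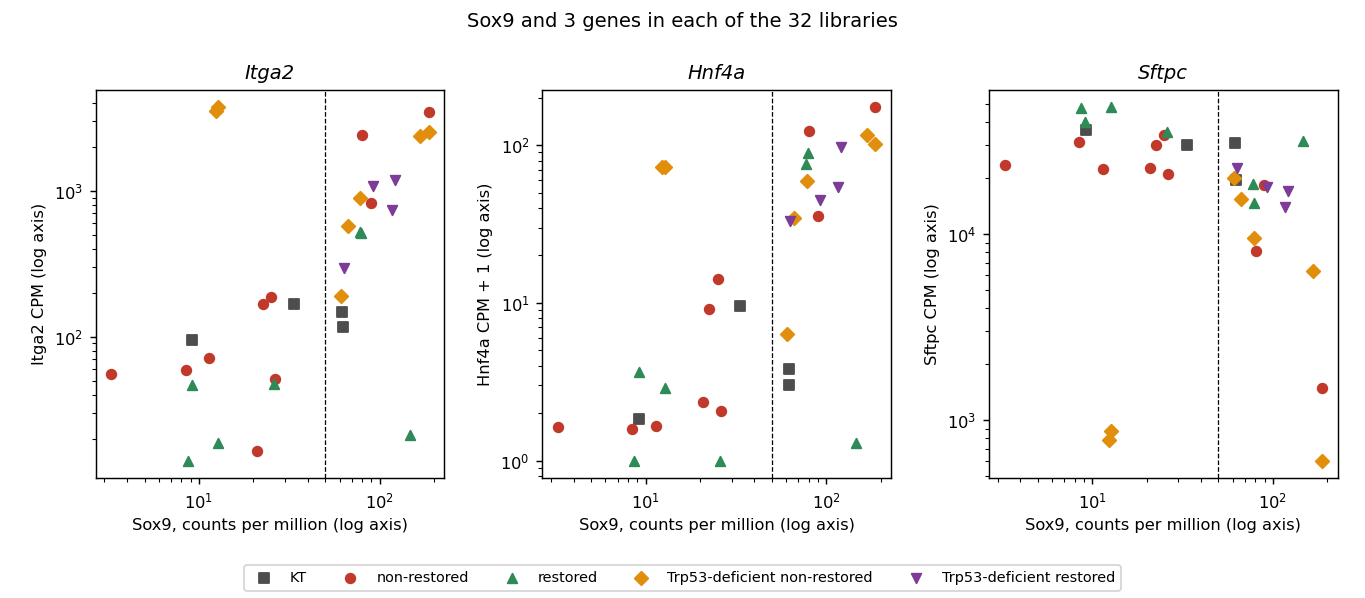
CPM of Itga2 and Sftpc and CPM + 1 of Hnf4a (y axes, log scale) against raw CPM of Sox9 (x axes, log scale) in all 32 libraries, with a symbol per group and the cut at 50 as a dashed line. Restored replicate 6 lies at 147 raw CPM of Sox9 with 21.1 CPM of Itga2, and 2 libraries of 1 Trp53-deficient non-restored animal lie at 12.4 and 12.8 raw CPM with 3526 and 3739 CPM of Itga2.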

How the data were processed

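The authors aligned paired reads from ribosomal RNA-depleted libraries of 2 to 10 ng of RNA to mm10 with STAR (2.6.1d in the submitters' processing notes) and estimated genes with RSEM (1.2.30). The deposited values used here are RSEM's expected counts per gene, which are not normalized. The deposited TPM values, scaled by the authors for effective length and library size, gave no test. A deposited table of normalized counts, a signal divided by DESeq2 factors, and tables of log2 fold changes and p-values for the authors' own comparisons were not used. Expected counts were rounded, filtered with filterByExpr and scaled by TMM, and classes were compared with edgeR 4.0.16 (limma 3.58.1, R 4.3.3) by the quasi-likelihood F test with robust dispersions, Benjamini-Hochberg adjustment and a threshold of 0.05. *Sox9* stayed among the counts that were fitted, was removed from the results of every fit, and was the predictor in the slope fits. Log2 CPM values for the principal components and log2 *Sox9* carry a prior count of 2, and log fold changes were left at edgeR's default. A floor of 3 counts per library covers counting error only. Coordinates are GRCm38 (GENCODE M21).

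The members and gene lists were chosen with earlier results of these data known. Named genes are, for each direction, the 8 of smallest adjusted p among called genes with a log2 fold change over 1 in size and a mean of at least 10 CPM, without predicted genes and pseudogenes, at most 4 per list by smallest p, and the C/EBP family. In the fit of 19 units, libraries of 1 animal were summed. Titles with the same code were read as 1 animal, which occurred in *Trp53*-deficient non-restored libraries. Fewer mice than libraries are described for the non-restored and the restored group, so p-values treat libraries that may share a mouse as independent. The fitting steps were tested on simulated data. Alternatives were DESeq2 1.42.0, other size factors, other filters, length offsets, arm and sex covariates, single arms, female libraries, *Sox9* as a continuous covariate, other sets of libraries and leaving out each library. Permutation tests used scipy 1.17.1, and figures matplotlib 3.10.9, in Python 3.11.15. Some items are not reported here.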

Additional observations from a re-analysis of the deposited data

Results flagged for a closer look

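In 21 sets of Sox9-low values of named genes that were examined for a library apart from the others, 2 held one, and chance alone would mark about 1 in 20. *Eml1* was at 4.12 CPM in Sox9-low replicate 6, above the other 6 Sox9-low libraries and below the lowest Sox9-high library at 19.0 CPM. *Spire1* was at 7.07 CPM in Sox9-low replicate 2, below the lowest Sox9-high library at 16.9 CPM.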

How the results depend on the processing

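Counts of called genes moved with the settings, and the cause was not tested beyond the number of libraries. In the class comparison 936 genes were lower with DESeq2, and a sex covariate gave 840 higher and 409 lower genes. Female libraries alone gave 407 higher and 108 lower genes, the vehicle arm alone 228 and 81, and the tamoxifen arm alone 1671 lower. Leaving out 1 library gave 536 to 1618 higher and 136 to 1349 lower genes. The share of calls that were higher was 66.1%, 56.7% with DESeq2 and 65.9% with median-of-ratios size factors, and ran from 48.2% in the tamoxifen arm to 81.9% without replicate 4. In each of these settings 0 called genes had the opposite direction. On the slope DESeq2 gave 285 rising and 128 falling genes, restored libraries alone 2 rising, and *Trp53* wild-type libraries alone 9 rising. Leaving out 1 unit gave 3 to 324 rising and 1 to 146 falling genes. The difference of the first principal component, 64.6, ran from 55.3 to 77.4 when 1 library was left out, where the smallest possible p is 0.0556 without a Sox9-high library. Log2 fold changes that turned sign, none of them called in the full comparison, were those of *Gkn1* (-0.69 in the vehicle arm, -0.17 without replicate 8 and up to 5.43 without 1 library), *Sftpb* (-1.36 in the tamoxifen arm, where it was called lower, and from -0.093 without replicate 4 to 0.86 without 1 library) and *Ddit3* (from -0.76 to 0.047 when 1 library was left out). No paired analysis was possible because the Sox9-high and Sox9-low libraries belong to 1 labelled group and share no replicate numbers. With 3 Sox9-high libraries, differences that miss the threshold are not shown to be absent, and at the depth of these libraries genes under a few CPM rest on few counts.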
